A study of Homo sapiens with 18 samples.

Results

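The MYC and MAX network is a family of basic helix-loop-helix leucine zipper transcription factors that pair through their zippers. Its genes were taken by symbol from the deposited count table. The 10 members were MYC, MYCN, MAX, MXD1, MXD3, MXD4, MXI1, MNT, MLX and MGA, out of 41285 genes in the table. After a filter on low counts 9 of them were tested, among 22143 genes tested in all, and MYCN was not tested.

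MYC and MYCN bind DNA as partners of MAX at E-boxes, with CACGTG as the canonical sequence, and recruit acetyltransferases and elongation factors. The MXD proteins, MXI1 and MNT compete for MAX and bring SIN3 and histone deacetylase corepressors to the same sites. MLX is the partner of the glucose-sensing Mondo proteins and shares MXD1, MXD4 and MNT with MAX, and MGA is the large MAX partner found in a variant Polycomb complex. In blood cells MYC is known for driving growth and ribosome production and is lowered as cells mature. MXD1 and MXD4 are known for rising with maturation, while MXD3 is known from cycling progenitor cells.

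The RNA came from 3 lines of the chronic myeloid leukaemia line K562, as 18 libraries that form 9 groups of 2. VPR-D9 carried doxycycline-inducible dCas9-VPR, a transcriptional activator, and KRAB-D9 carried inducible dCas9-KRAB, a repressor. The series title names SAMD9, an interferon-induced gene, as the object of study. The VPR-D9 groups were the doxycycline groups D2000 and D6, and untreated cells. The KRAB-D9 groups were doxycycline with interferon alpha (IFN), doxycycline, IFN, and untreated cells. The parental line was given IFN or left untreated. The labels' protocol gives doxycycline at 2 µg/mL, without a separate dose for D6, and IFN at 1000 U/mL for 24 hours, and KRAB-D9 cells given both had doxycycline for 24 hours before IFN and throughout it. The sources used here do not explain D2000 or D6. A doxycycline-treated parental group was not analysed here, so an effect of the drug and an effect of the induced protein cannot be told apart. Separate cultures are not stated for the libraries of 1 group, so the p-values measure only the spread between these samples, which may be technical.

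Total counts ran from 32.7 M to 63 M a library, around a median of 52.9 M. SAMD9 checked the labels: it was higher in D2000 than in untreated VPR-D9 cells by 3.99 (log2), in D6 by 3.97, and it fell by 3.23 in KRAB-D9 cells with doxycycline, against untreated cells in which it was already under 1 CPM. All 13 erythroid leukaemia markers of K562 were detected. The first KRAB-D9 library with IFN was the shallowest, and its group had the widest spread, with a median variance over counting noise of 9.38 beside 4.15 to 5.76 elsewhere. Fold changes are log2 values, and ± gives their standard error. Calls were made with edgeR's quasi-likelihood test, fitted to all libraries at once, at a p under 0.05 after Benjamini-Hochberg adjustment over all genes tested. Levels are TMM-scaled CPM, which weighs each count by its library's total and anchors the scale on the bulk of the genes. In bulk RNA, fewer cells expressing a gene and less of its RNA per cell cannot be told apart.

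Set beside each other per kilobase of gene model, MYC had the highest level of the network in every group except D2000. Its lowest and highest levels over the 18 libraries were 11.6 and 74.6 CPM per kb. MLX spanned 12.4 to 19.7 CPM per kb, MAX 8.91 to 15.0 and MGA 7.01 to 8.67. Among the MAX-binding antagonists of MYC, MXD1 spanned 5.18 to 8.13 CPM per kb, MXI1 3.55 to 7.42, MXD4 1.83 to 7.60, MNT 2.59 to 5.63 and MXD3 1.44 to 4.52. By this measure of RNA the obligate partner MAX lay below MYC in all 18 libraries. MYC-to-MAX ratios of levels per kb ran from 1.28 and 1.37 in D2000 to 5.22 in the second KRAB-D9 library with IFN. The length of a gene model need not be that of the transcripts expressed. Without division by length, the D2000 libraries held 56.99 and 55.7 CPM of MAX, against 53.3 and 56.0 CPM of MYC, so their order in D2000 rests on it. MYCN, the neuronal paralogue of MYC, was close to absent, with 4 and 8 counts in the parental libraries with IFN, 2 and 4 in the KRAB-D9 libraries with doxycycline, and none in the libraries of the other 7 groups. A count of 0 allows up to 0.0417 to 0.0966 CPM, depending on the library (3 counts, counting error only).

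**Figure D1:**
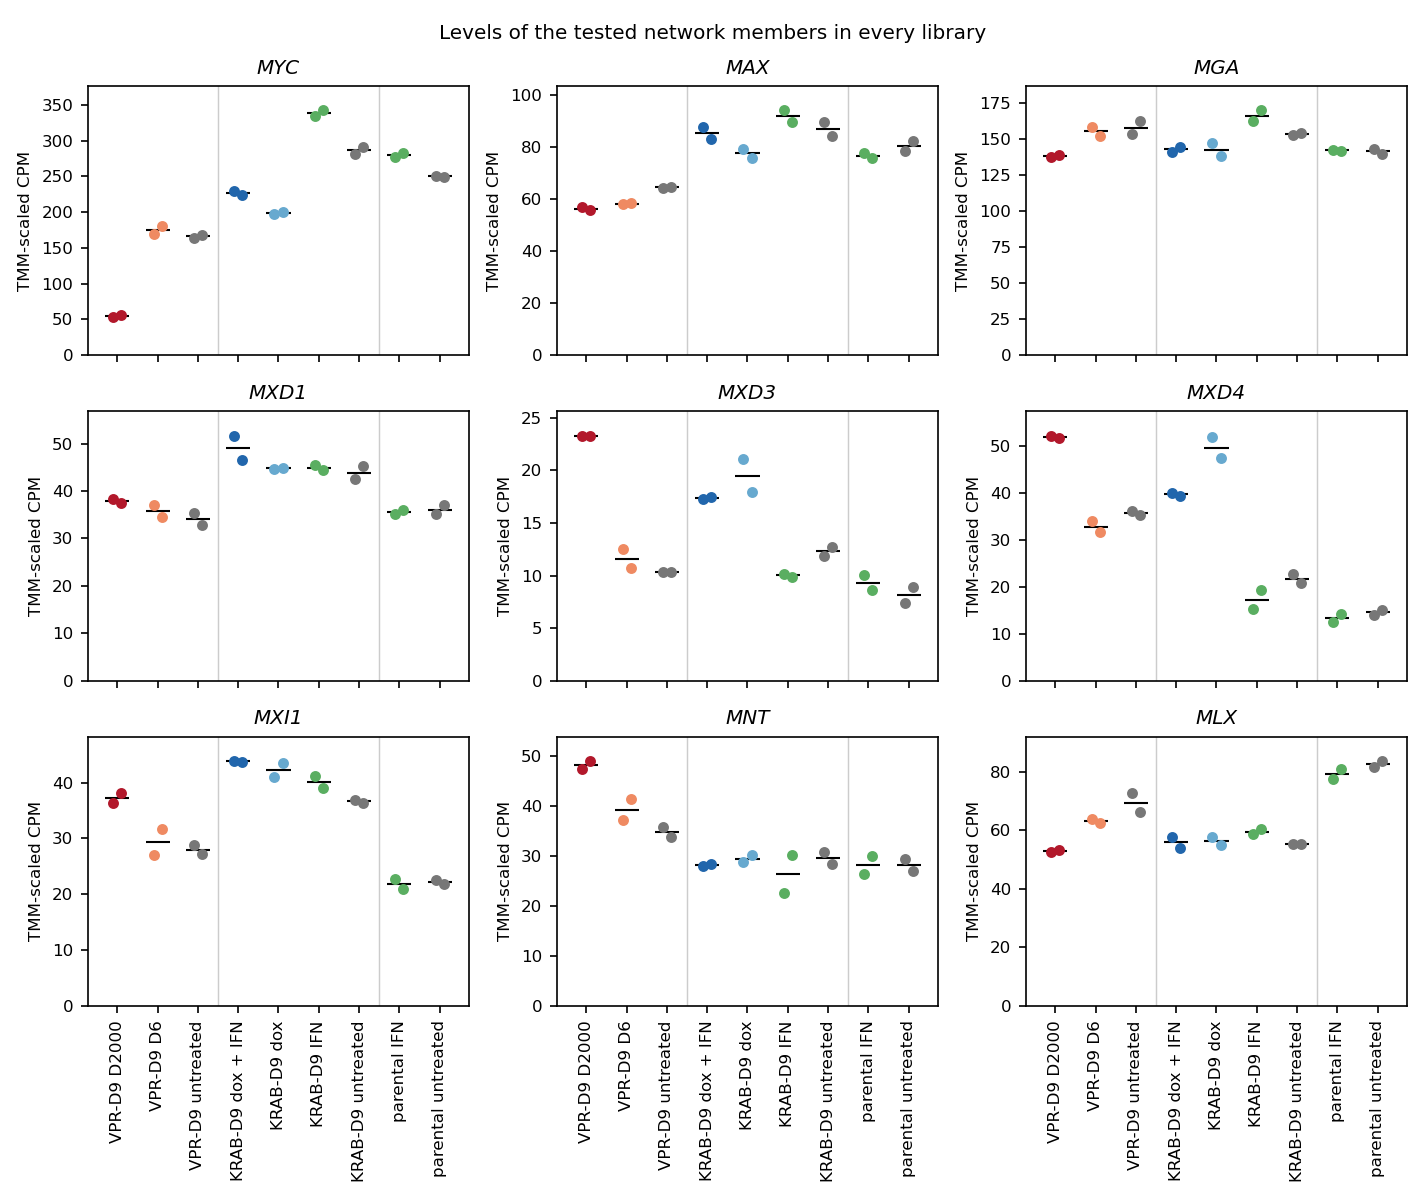
Level of the 9 tested members in each library, in TMM-scaled CPM on linear axes that start at 0; points are libraries, bars are means of 2, and grey lines part the VPR-D9, KRAB-D9 and parental lines. The 2 D2000 libraries held 53.3 and 56.0 CPM of MYC, below all 16 other libraries, and they held the 2 highest MXD3 levels.

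MYC (ENSG00000136997.21, chr8:127735434-127742951 in GRCh38) was lower in D2000 than in any other group, by 3.04-fold against untreated cells of its own line. It stood at 53.3 and 56.0 CPM in the D2000 libraries, against 164 and 168 CPM in untreated VPR-D9 libraries. The groups were far apart relative to the gap between libraries of a group. The difference was -1.60 ± 0.04 on the log2 scale (edgeR quasi-likelihood adjusted p = 3.32e-28). In D6, MYC stood at 170 and 181 CPM, which is close to and just above the untreated libraries. That difference, 0.08 ± 0.04, was not called (edgeR adjusted p = 0.349; 95% interval -0.01 to 0.16). Set directly against D2000, D6 had 3.20-fold more MYC, a difference of 1.68 ± 0.04 (edgeR adjusted p = 2.34e-28). SAMD9 itself did not show a difference between D6 and D2000 (-0.02 ± 0.05, edgeR adjusted p = 0.821). The D2000 and D6 comparisons share the untreated VPR-D9 libraries.

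Over the whole network, 4 of the 9 tested members were called higher and 4 lower in D2000 than in untreated VPR-D9 cells, where 46.1% of all genes were called. In D6 none of the 9 was called by edgeR's quasi-likelihood test, where 6.6% of all genes were called (1461 genes, and 752 to 853 when a library was left out). At an unadjusted p under 0.05 there were 2 such members, and none was called by DESeq2. Between D6 and D2000, 3 members were higher and 4 lower in D6, against 40.4% of all genes called. Scaling by library totals in place of TMM moved the median of all genes by 0.23 in D2000 and by -0.195 between D6 and D2000. Under that scaling the split was 5 higher and 2 lower in D2000, and 1 higher and 6 lower in D6 against D2000, while MYC in D2000 stayed called at -1.37.

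Other features moved with D2000 as well. The 13 erythroid markers summed to between 752 and 756 CPM in D2000, between 1403 and 1421 CPM in D6, and between 1574 and 1584 CPM in untreated VPR-D9 cells. Much of the drop in D2000 was TFRC, also listed below as a MYC target, at 223 and 219 CPM, against 645 and 664 CPM untreated. TAL1 and EPOR overlapped the untreated libraries. HBE1 was higher in D2000, at 2.13 and 2.07 CPM, against 1.67 and 1.45 CPM, and the other erythroid markers were lower. Summed, 5 monocyte or neutrophil markers reached 191 to 193 CPM in D2000, 56.96 to 58.7 CPM in D6, and 7.97 to 8.67 CPM in untreated VPR-D9 cells. Nearly all of it was ITGAM, and the other 4 stayed at or under 0.614 CPM in every library. Among 6 fibroblast or epithelial markers, COL1A1 stood at 30.9 and 30.03 CPM in D2000, against 3.38 and 2.67 CPM in untreated VPR-D9 cells, and EPCAM at 30.4 and 30.7 CPM, against 64.4 and 69.4 CPM. COL1A2 did not rise with COL1A1, at 0 and 0.0151 CPM in D2000, against 0.0669 and 0.205 CPM untreated. PDGFRB, DCN and CDH1 stayed at or under 0.569 CPM in every library. COL1A1 was as high in D6, at 31.4 and 30.9 CPM, where MYC was not called. The part of these markers in the MYC result was not tested.

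In the repressor line doxycycline also went with less MYC, by a smaller factor. MYC stood at 197 and 201 CPM in KRAB-D9 libraries with doxycycline, against 281 and 291 CPM in untreated KRAB-D9 libraries. With IFN present it stood at 229 and 224 CPM with doxycycline, against 334 and 342 CPM without doxycycline. The groups did not overlap in either pair. MYC fell by 0.52 ± 0.04 (1.44-fold, edgeR adjusted p = 4.08e-13) without IFN and by 0.58 ± 0.04 (1.49-fold, edgeR adjusted p = 3.18e-14) with IFN. The second value rests on the KRAB-D9 libraries with IFN, and it was -0.59 without the shallow first library. Of the 9 members, 3 were called higher and 2 lower with doxycycline alone, where 24.7% of all genes were called. With doxycycline on top of IFN, 2 were called higher and 2 lower, where 22.3% of all genes were called. With library totals these splits were 3 and 1, and 3 and 2, and with DESeq2's size factors the split for doxycycline alone was 3 and 3. Summed erythroid markers were 3919 to 3983 CPM with doxycycline and 3389 to 3413 CPM untreated, the other direction from D2000. HBZ went against this sum, at 572 CPM in both libraries with doxycycline, against 617 and 635 CPM untreated. GATA1 overlapped, and the other erythroid markers were higher with doxycycline.

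IFN went with a small rise of MYC in the parental and the KRAB-D9 lines. Parental libraries held 277 and 283 CPM with IFN, against 250.8 and 248.995 CPM untreated. That rise was 0.16 ± 0.04 (1.12-fold, edgeR adjusted p = 0.00972), and leaving out either untreated library, or the second IFN library, took its adjusted p to 0.0798, 0.115 and 0.141. In KRAB-D9 cells, the IFN libraries given above lay above the untreated ones without overlap, and the rise was 0.24 ± 0.04 (1.18-fold, edgeR adjusted p = 4.5e-05), or 0.26 without the shallow first IFN library. On top of doxycycline the rise was 0.19 ± 0.04 (1.14-fold, edgeR adjusted p = 0.00208), with adjusted p of 0.0589 without the first doxycycline library and 0.0510 without the first library given both. MYC was the sole member called in parental cells (1 of 9, with 4.34% of all genes called, which is 960 genes, and 467 to 781 when a library was left out). In KRAB-D9 cells 1 member was higher and 1 lower without doxycycline (6.4% of all genes called) and likewise with it (4.89% of all genes called). The lower one was MXD4 in both. The IFN and doxycycline comparisons of KRAB-D9 cells share libraries: the untreated ones, those with IFN alone, those with doxycycline alone or those with both.

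No member was called for a different IFN response between KRAB-D9 and parental cells (0 of 9, with 0.303% of all genes called). The 2 members at an unadjusted p under 0.05 were MXD3 (-0.49 ± 0.17, 95% interval -0.83 to -0.16) and MLX (0.17 ± 0.08, 95% interval 0.01 to 0.33). The difference for MYC was 0.08 ± 0.06 (95% interval -0.04 to 0.19). For the interaction of IFN and doxycycline within KRAB-D9 the count was also 0 of 9, with 0.158% of all genes called and 0 at an unadjusted p under 0.05. Its value for MYC was -0.05 ± 0.06 (95% interval -0.17 to 0.06). DESeq2 likewise called 0 members in both.

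Untreated lines already differed in MYC. VPR-D9 libraries, at the values above, lay below the parental ones by 0.59 ± 0.04 (1.503-fold, edgeR adjusted p = 3.39e-15). KRAB-D9 libraries lay above them by 0.20 ± 0.04 (1.15-fold, edgeR adjusted p = 0.000184). SAMD9 differed between untreated lines as well. Untreated VPR-D9 cells averaged 60.6 CPM of SAMD9, against 9.18 CPM in parental cells (2.72 ± 0.07, edgeR adjusted p = 4.78e-23). Untreated KRAB-D9 cells held less SAMD9 than parental cells (-3.99 ± 0.16, edgeR adjusted p = 2.1e-18). In order of mean level, MYC ran from KRAB-D9 with IFN (338 CPM) through untreated KRAB-D9 (286), parental with IFN (280), untreated parental (250), KRAB-D9 with both agents (227), KRAB-D9 with doxycycline (199), D6 (175) and untreated VPR-D9 (166) to D2000 (54.7 CPM). Untreated KRAB-D9 and parental with IFN overlapped, and the other neighbours did not, although D6 and untreated VPR-D9 were not called different.

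PVT1, a long noncoding RNA gene next to MYC, was among 6 named neighbours of the MYC locus, of which 3 were tested. It held 13.3 and 12.2 CPM in the D2000 libraries, 48.1 and 52.2 CPM in D6, and 67.7 and 65.3 CPM in untreated VPR-D9. Both doxycycline groups lay below the untreated one, and D2000 lay furthest below. PVT1 fell by 2.38 ± 0.07 in D2000 (edgeR adjusted p = 4.6e-26) and by 0.41 ± 0.07 in D6 (edgeR adjusted p = 4.21e-05), where MYC was not called. In KRAB-D9 cells without IFN, PVT1 held 70.2 and 71.4 CPM with doxycycline, against 55.3 and 56.5 CPM untreated, and rose by 0.34 ± 0.07 (edgeR adjusted p = 0.000108) where MYC fell. With IFN present, PVT1 held 77.5 and 73.9 CPM with doxycycline, against 79.7 and 64.9 CPM without it, which overlapped and was not called (0.07 ± 0.07, edgeR adjusted p = 0.499). No other tested neighbour was called in any of the doxycycline comparisons. CASC11, the one gene that overlaps MYC in the table, held few counts.

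MAX (ENSG00000125952.20, chr14:65006174-65102695), the shared partner, spanned 8.91 to 15.0 CPM per kb over the 18 libraries. It stood at 56.99 and 55.7 CPM in the D2000 libraries, 58.0 and 58.5 CPM in D6, and 64.4 and 64.7 CPM in untreated VPR-D9 cells. All 4 doxycycline libraries lay below the untreated pair. The D2000 difference was called at -0.20 ± 0.05 (edgeR adjusted p = 0.00182) with TMM but took the other sign, 0.03, with library totals, and D6 was not called (-0.15 ± 0.05, edgeR adjusted p = 0.0928). In KRAB-D9 cells MAX stood at 79.4 and 75.7 CPM with doxycycline and 89.6 and 84.2 CPM untreated, a fall of 0.16 ± 0.05 (edgeR adjusted p = 0.0163) that was lost with library totals (adjusted p = 0.0625) and without the first untreated or the second doxycycline library (adjusted p = 0.226 and 0.201). Untreated VPR-D9 cells held less MAX than parental cells, by 0.31 ± 0.05 (edgeR adjusted p = 4.12e-06). FNTB overlaps MAX in the annotation, and the strand setting of the counting is not given in the sources used here, so reads of the pair may be mixed. The same holds for MXD1 with SNRNP27, MXD3 with RAB24 and PRELID1, and MLX with PSMC3IP.

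**Figure D2:**
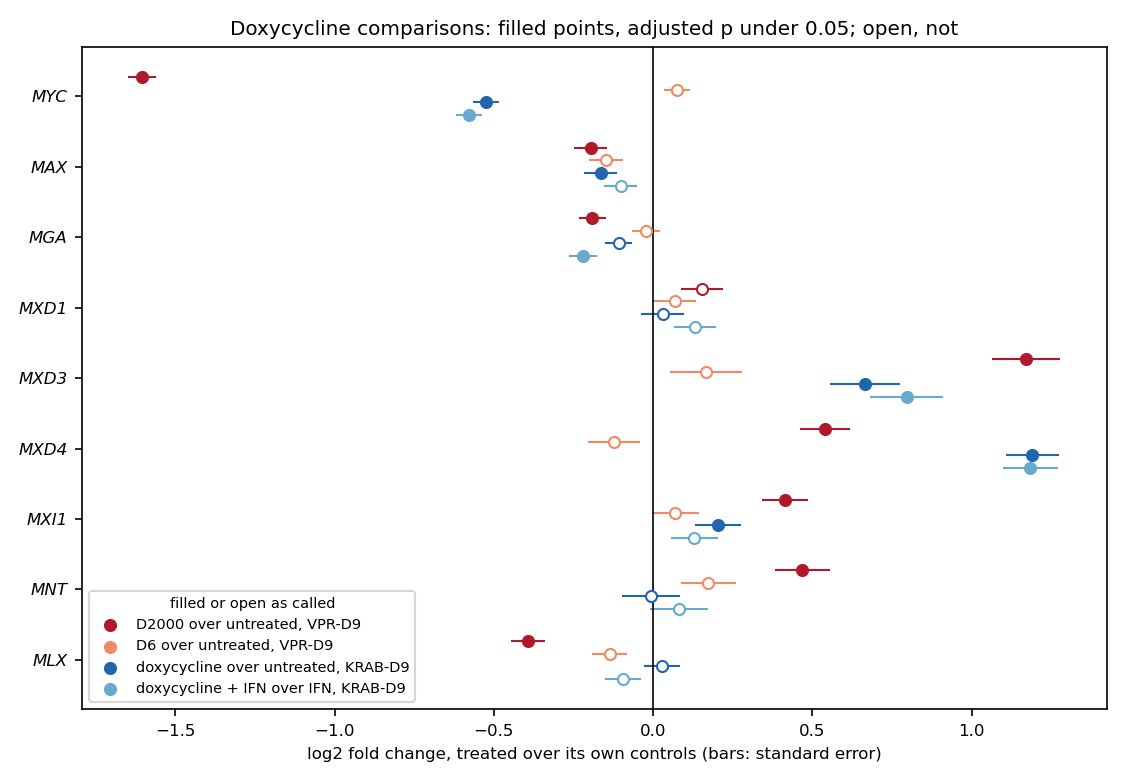
Log2 fold change of each tested member with its standard error in the 4 doxycycline comparisons; filled points passed an adjusted p under 0.05 in edgeR's quasi-likelihood test and open points did not. MYC was lower in D2000 (-1.60) and in both KRAB-D9 comparisons (-0.52 and -0.58), MXD3 and MXD4 were higher in the same 3, and all D6 points are open; the D2000 values of MAX and MGA change sign with library totals.

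MXD3 (ENSG00000213347.10, chr5:177301461-177312757), an MXD repressor known from cycling progenitor cells, was the antagonist with the largest rise in D2000. It stood at 23.3 CPM in both D2000 libraries, 12.5 and 10.7 CPM in D6, and 10.4 and 10.3 CPM in untreated VPR-D9 cells. D2000 stood apart from the other groups of the line. MXD3 rose by 1.17 ± 0.11 in D2000 (2.25-fold, edgeR adjusted p = 4.98e-12), and the D6 value, 0.17 ± 0.11, was not called (edgeR adjusted p = 0.508). In KRAB-D9 cells it stood at 21.1 and 17.9 CPM with doxycycline, against 11.9 and 12.7 CPM untreated, and at 17.3 and 17.5 CPM with both agents, against 10.1 and 9.89 CPM with IFN alone. Each doxycycline pair lay above its controls. The rises were 0.67 ± 0.11 (edgeR adjusted p = 8.93e-06) and 0.80 ± 0.11 (edgeR adjusted p = 7.77e-07).

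MXD4 (ENSG00000123933.17, chr4:2247432-2262109), an MXD repressor known from differentiating cells, was the antagonist with the largest rise in KRAB-D9 cells. In KRAB-D9 cells it stood at 51.9 and 47.4 CPM with doxycycline, against 22.7 and 20.8 CPM untreated. With both agents it stood at 39.9 and 39.5 CPM, against 15.3 and 19.3 CPM with IFN alone. Neither pair overlapped. MXD4 rose by 1.19 ± 0.08 without IFN (2.28-fold, edgeR adjusted p = 2.52e-14) and by 1.18 ± 0.09 with IFN (2.27-fold, edgeR adjusted p = 8.39e-14), and the second value was 1.04 without the shallow IFN library. In VPR-D9 it stood at 52.3 and 51.9 CPM in the D2000 libraries, 34.0 and 31.7 CPM in D6, and 36.3 and 35.3 CPM untreated. D2000 was higher than untreated by 0.54 ± 0.08 (edgeR adjusted p = 2.27e-07), and D6 was not called (-0.12 ± 0.08, edgeR adjusted p = 0.482). Untreated VPR-D9 cells held 2.46-fold more MXD4 than parental cells, which stood at 14.0 and 15.1 CPM, a difference of 1.30 ± 0.09 (edgeR adjusted p = 8.64e-16). Untreated KRAB-D9 cells held 1.498-fold more than parental cells (0.58 ± 0.09, edgeR adjusted p = 1.41e-06).

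IFN went with less MXD4 in KRAB-D9 cells. With IFN it fell by 0.32 ± 0.09 (edgeR adjusted p = 0.0218), and on top of doxycycline by 0.32 ± 0.08 (edgeR adjusted p = 0.00882). The first fall was lost without the shallow first IFN library (-0.17, adjusted p = 0.385), without the first untreated library (-0.25, adjusted p = 0.263), and when the 2 groups were fitted alone (adjusted p = 0.203). The second was lost without the first doxycycline library (adjusted p = 0.199) or without either library given both agents (adjusted p = 0.0592 and 0.0809). In parental cells MXD4 stood at 12.6 and 14.1 CPM with IFN, overlapping the untreated libraries, and was not called (-0.12 ± 0.09, edgeR adjusted p = 0.624).

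MXI1 (ENSG00000119950.21, chr10:110207605-110287365), the MAX interactor also called MXD2, was higher in D2000. It stood at 36.3 and 38.2 CPM in the D2000 libraries, 27.1 and 31.6 CPM in D6, and 28.7 and 27.1 CPM in untreated VPR-D9 cells. D6 overlapped the untreated libraries and D2000 did not. The D2000 rise was 0.41 ± 0.07 (edgeR adjusted p = 6.58e-06). In KRAB-D9 cells with doxycycline it stood at 40.9 and 43.4 CPM, against 36.9 and 36.3 CPM untreated, a rise of 0.20 ± 0.07 near the threshold (edgeR adjusted p = 0.0347), with 0.0578 by DESeq2 and 0.113 to 0.250 without either untreated library or without the second doxycycline library. The line difference was larger: untreated KRAB-D9 cells held 1.65-fold more MXI1 than parental cells at 22.5 and 21.8 CPM (0.73 ± 0.08, edgeR adjusted p = 4.03e-10).

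MNT (ENSG00000070444.15, chr17:2384073-2401104), the MAX partner expressed in most cell types, was higher in D2000. It stood at 47.3 and 49.0 CPM in the D2000 libraries, 37.2 and 41.3 CPM in D6, and 35.8 and 33.8 CPM untreated. The 3 groups were in order without overlap. The D2000 rise was 0.47 ± 0.09 (edgeR adjusted p = 1.79e-05), and D6 was not called in the fit of all libraries (0.17 ± 0.09, edgeR adjusted p = 0.299). In KRAB-D9 cells MNT stood at 28.8 and 30.1 CPM with doxycycline, against 30.7 and 28.4 CPM untreated, a difference of -0.01 ± 0.09 (95% interval -0.19 to 0.18). MXD1 (ENSG00000059728.11, chr2:69897688-69942945), the MXD gene known from terminal differentiation, was not called in any treatment comparison. Its highest value there was 0.15 ± 0.07 in D2000 (edgeR adjusted p = 0.0555), at 38.2 and 37.5 CPM in D2000 against 35.3 and 32.9 CPM untreated, and library totals brought it past the threshold. Untreated KRAB-D9 cells held more of it than parental cells did (0.28 ± 0.07, edgeR adjusted p = 0.000987).

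MLX (ENSG00000108788.12, chr17:42567072-42573239), the hub of the Mondo branch, was lower in D2000. It stood at 52.6 and 53.1 CPM in the D2000 libraries, 63.9 and 62.4 CPM in D6, and 72.6 and 66.2 CPM in untreated VPR-D9 cells. The 3 groups were in order without overlap. MLX fell by 0.39 ± 0.05 in D2000 (edgeR adjusted p = 9.72e-08), and D6 was not called (-0.14 ± 0.06, edgeR adjusted p = 0.155). Untreated KRAB-D9 cells, at 55.2 and 55.1 CPM, held less than parental cells at 81.4 and 83.6 CPM, a difference of -0.58 ± 0.06 (1.495-fold lower, edgeR adjusted p = 5.71e-11), and doxycycline there gave 0.03 ± 0.06 (edgeR adjusted p = 0.791).

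MGA (ENSG00000174197.17, chr15:41621134-41773081), which also carries a T-box DNA-binding domain, had the narrowest range of levels of the 9 tested members. It stood at 137 and 139 CPM in the D2000 libraries, 158 and 152 CPM in D6, and 153 and 162 CPM in untreated VPR-D9 cells. MGA in D2000 fell by 0.19 ± 0.04 with TMM (edgeR adjusted p = 0.000296) and took the other sign, 0.04, with library totals, and the D6 over D2000 difference of 0.17 likewise took the other sign, -0.03. With both agents MGA stood at 141 and 144 CPM, against 162 and 170 CPM with IFN alone, a fall of 0.22 ± 0.04 (edgeR adjusted p = 0.000168) that was -0.25 without the shallow IFN library.

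Over untreated cells, 5 members were called higher and 3 lower in VPR-D9 than in parental cells, where 36.8% of all genes were called. In untreated KRAB-D9 cells 6 members were higher and 1 lower than in parental cells, where 28.5% of all genes were called. MXD3, MXD4 and MXI1 were among the higher members in both lines. MXD3 stood at 10.4 and 10.3 CPM in VPR-D9 and 11.9 and 12.7 CPM in KRAB-D9, against 7.42 and 8.91 CPM in parental cells, and its VPR-D9 difference (0.34 ± 0.12, edgeR adjusted p = 0.0161) was lost without the first parental library (adjusted p = 0.297) or without either VPR-D9 library (0.0657 and 0.0609). Each line is set against the same parental libraries, and whether a line is a single clone is not given in the sources used here.

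Promoter windows were available in RefSeq (GRCh38.p14) as 250 bases before to 50 bases after each start. CACGTG, its own reverse complement, was found in 3 of 14 windows of the 9 members other than MYC, 1 each for MXD4, MNT and MLX, against 2548 of 35116 windows in the table (7.26%). The windows are shown 5′ to 3′ on the gene's strand, with the E-box in capitals, because they carry the sequence that the network itself reads, and because MXD4 was the member with the largest rise in KRAB-D9 cells. In MXD4 (chr4:2262060-2262359, minus strand) the E-box lay at -238 to -233 from the start, in MNT (chr17:2401011-2401310, minus strand) at -193 to -188, and in MLX (chr17:42566850-42567149, plus strand) at -50 to -45. The match is a description of these letters in these windows, and MYC itself was not searched.
MXD4: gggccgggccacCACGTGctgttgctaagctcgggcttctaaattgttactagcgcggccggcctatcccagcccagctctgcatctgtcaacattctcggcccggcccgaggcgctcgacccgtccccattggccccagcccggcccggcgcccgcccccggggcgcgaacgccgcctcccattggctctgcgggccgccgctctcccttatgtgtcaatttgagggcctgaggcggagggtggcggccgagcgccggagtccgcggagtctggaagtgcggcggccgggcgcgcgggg
MNT: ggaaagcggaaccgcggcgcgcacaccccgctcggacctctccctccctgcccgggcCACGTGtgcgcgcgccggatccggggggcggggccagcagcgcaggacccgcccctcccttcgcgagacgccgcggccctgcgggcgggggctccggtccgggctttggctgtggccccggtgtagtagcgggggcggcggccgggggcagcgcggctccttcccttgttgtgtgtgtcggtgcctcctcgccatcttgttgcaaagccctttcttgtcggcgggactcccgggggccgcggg
MLX: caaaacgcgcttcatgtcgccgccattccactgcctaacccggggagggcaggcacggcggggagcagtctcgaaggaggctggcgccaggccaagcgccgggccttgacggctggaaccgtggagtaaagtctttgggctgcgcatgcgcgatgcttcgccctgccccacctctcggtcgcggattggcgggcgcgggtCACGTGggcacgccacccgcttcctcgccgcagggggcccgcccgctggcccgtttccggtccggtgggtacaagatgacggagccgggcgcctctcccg

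The members with this match did not move as one group in D2000: MXD4 and MNT were higher there and MLX was lower. MXD3 and MXI1, whose windows did not hold these letters, were also higher in D2000.

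The level of MYC per kb was set against the sum of MXD1, MXD3, MXD4, MXI1 and MNT in each library. The ratio was 0.392 and 0.407 in D2000, 1.68 and 1.78 in D6, and 1.64 and 1.76 in untreated VPR-D9 libraries. In RNA per kb, D2000 was the one group in which the summed antagonists exceeded MYC, and D6 overlapped the untreated libraries. Protein levels were not measured here, so these ratios are of RNA alone. In KRAB-D9 the ratio was 1.49 and 1.55 with doxycycline, against 2.77 and 2.89 untreated, and 1.79 and 1.80 with both agents, against 3.49 and 3.43 with IFN alone. Doxycycline libraries thus lay lower in both pairs, with no overlap. Parental libraries had 3.73 and 3.77 with IFN and 3.38 and 3.28 untreated. The sum itself was 29.7 and 30.1 CPM per kb in D2000 and 28.9 and 28.3 in KRAB-D9 with doxycycline, while MYC itself was 11.6 and 12.2 CPM per kb in D2000.

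**Figure D3:**
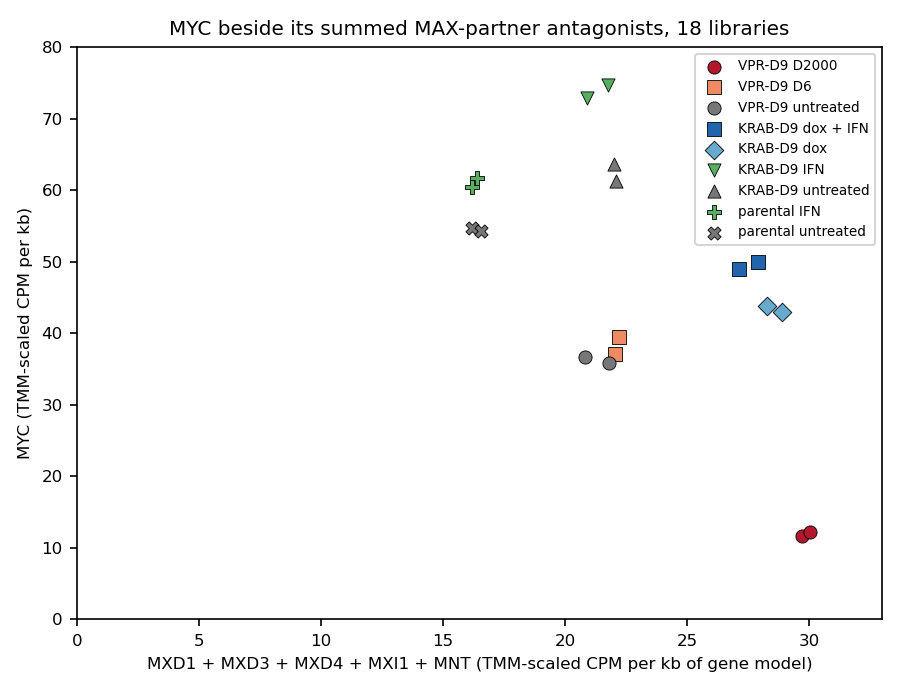
MYC (vertical, TMM-scaled CPM per kb) against the sum of 5 MAX-partner antagonists (horizontal, TMM-scaled CPM per kb), 1 point a library, both axes from 0. D2000 libraries sit alone at the lower right, with 11.6 and 12.2 CPM per kb of MYC beside sums of 29.7 and 30.1, while D6 sits with untreated VPR-D9.

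The doxycycline response of D2000 was tested against that of KRAB-D9 cells without IFN, as a difference of differences. It differed for 5 of the 9 members, 2 higher and 3 lower, where 31.3% of all genes were called. With library totals, which moved the median of all genes by 0.192, the split was 4 and 3. MYC fell further in D2000, by 1.08 ± 0.06 (edgeR adjusted p = 6.61e-18). MXD4 rose less in D2000 (-0.65 ± 0.11, edgeR adjusted p = 1.29e-05), and MXD3 rose more (0.51 ± 0.15, edgeR adjusted p = 0.00925). MNT (0.47 ± 0.12, edgeR adjusted p = 0.00263) and MLX (-0.42 ± 0.08, edgeR adjusted p = 3.47e-05) differed as well. The lines and the induced proteins differ together in this comparison and cannot be told apart. The protocol's dose, 2 µg/mL, was taken for both doxycycline groups, and the code D2000 is not explained.

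The remaining MYC-family and Mondo genes were MYCL, another MYC paralogue, and MLXIP and MLXIPL, the glucose-sensing partners of MLX. All 3 were called higher in D2000, in KRAB-D9 with doxycycline and in KRAB-D9 with both agents against IFN alone. List medians were 0.81, 0.75 and 0.66, against medians over all genes of 0.06, 0.02 and 0.01. In these comparisons 46.1%, 24.7% and 22.3% of all genes were called. MLXIPL, also known as ChREBP, stood at 20.1 and 22.4 CPM in the D2000 libraries, 8.09 and 7.08 CPM in D6, and 6.88 and 6.27 CPM in untreated VPR-D9 cells. D2000 alone was far above the rest, with a rise of 1.69 ± 0.14 (edgeR adjusted p = 1.52e-13). MLXIP stood at 250 and 251 CPM in D2000, against 164 and 160 CPM untreated (0.63 ± 0.05, edgeR adjusted p = 5.37e-13), and was the one of the 3 called in D6 (0.21 ± 0.05, edgeR adjusted p = 0.00881). Their partner MLX was lower in D2000.

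Of 4 genes listed as Mondo and MLX targets, all 4 were lower in D2000, while 3 were higher in KRAB-D9 with doxycycline and 1 was lower in D6. With both agents against IFN alone 1 of the 4 was higher. Of all genes, 46.1% were called in D2000, 24.7% in KRAB-D9 with doxycycline, 6.6% in D6 and 22.3% with both agents against IFN alone. PKLR, the red-cell and liver pyruvate kinase, stood at 4.91 and 4.99 CPM in the D2000 libraries, 19.4 and 19.6 CPM in D6, and 33.05 and 30.7 CPM in untreated VPR-D9 cells. It fell by 2.69 ± 0.07 in D2000 (edgeR adjusted p = 6.3e-28) and by 0.71 ± 0.06 in D6 (edgeR adjusted p = 8.21e-11). In KRAB-D9 cells it stood at 153 and 144 CPM with doxycycline, against 65.4 and 66.8 CPM untreated, a rise of 1.17 ± 0.06 (edgeR adjusted p = 5.27e-19). The direction thus differed between the lines, as did that of the erythroid marker sum given above. With library totals 2 of the 4 stayed called lower in D2000.

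Genes listed as activated by MYC, mostly for ribosome assembly, nucleotide supply and mitochondrial chaperones, were mostly lower where MYC was lower. Of all genes, 46.1% were called in D2000, 24.7% in KRAB-D9 with doxycycline, 22.3% with both agents against IFN alone and 6.6% in D6. Of 57 listed genes tested (of 58 listed), 54 were lower and 1 higher in D2000, with a list median of -1.11 against 0.06 for all genes. In KRAB-D9 cells 47 were lower and 1 higher with doxycycline (median -0.39, all genes 0.02), and 42 lower and 1 higher with both agents against IFN alone (median -0.37, all genes 0.01). In D6, where MYC was not called, 13 were lower and none higher, with a median of -0.10 against -0.01. That last count was 5 with library totals, 5 to 7 when a library of the comparison was left out, and 22 when the 2 groups were fitted alone. Between D6 and D2000, 55 were higher and 1 lower in D6 (median 1.01), where 40.4% of all genes were called (median -0.05).

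SRM, the spermidine synthase, stood at 54.0 and 48.7 CPM in the D2000 libraries, 185 and 188 CPM in D6, and 207 CPM in both untreated VPR-D9 libraries. HK2, a hexokinase, stood at 12.2 and 12.9 CPM in the D2000 libraries, 57.9 and 56.2 CPM in D6, and 70.2 and 70.6 CPM untreated. D2000 was far below for both, and the D6 libraries also lay below the untreated ones. SRM fell by 2.01 ± 0.05 (edgeR adjusted p = 1.16e-27) and HK2 by 2.49 ± 0.06 (edgeR adjusted p = 1.55e-28) in D2000, and HK2 fell by 0.30 ± 0.06 in D6 (edgeR adjusted p = 0.00041). HSPD1, the mitochondrial chaperonin, and NOLC1, a nucleolar scaffold protein, fell by 1.501 ± 0.03 (edgeR adjusted p = 1.25e-30) and 1.40 ± 0.04 (edgeR adjusted p = 6.3e-28) in D2000. In KRAB-D9 cells UTP20, a small-subunit assembly factor, stood at 87.9 and 85.0 CPM with doxycycline, against 147 and 144 CPM untreated, a fall of 0.75 ± 0.04 (edgeR adjusted p = 1.62e-16). The genes called against the trend were MAP3K6 in D2000 (0.72) and PRMT3 with doxycycline in KRAB-D9 (0.24 and 0.20), named here after their values were seen.

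**Figure D4:**
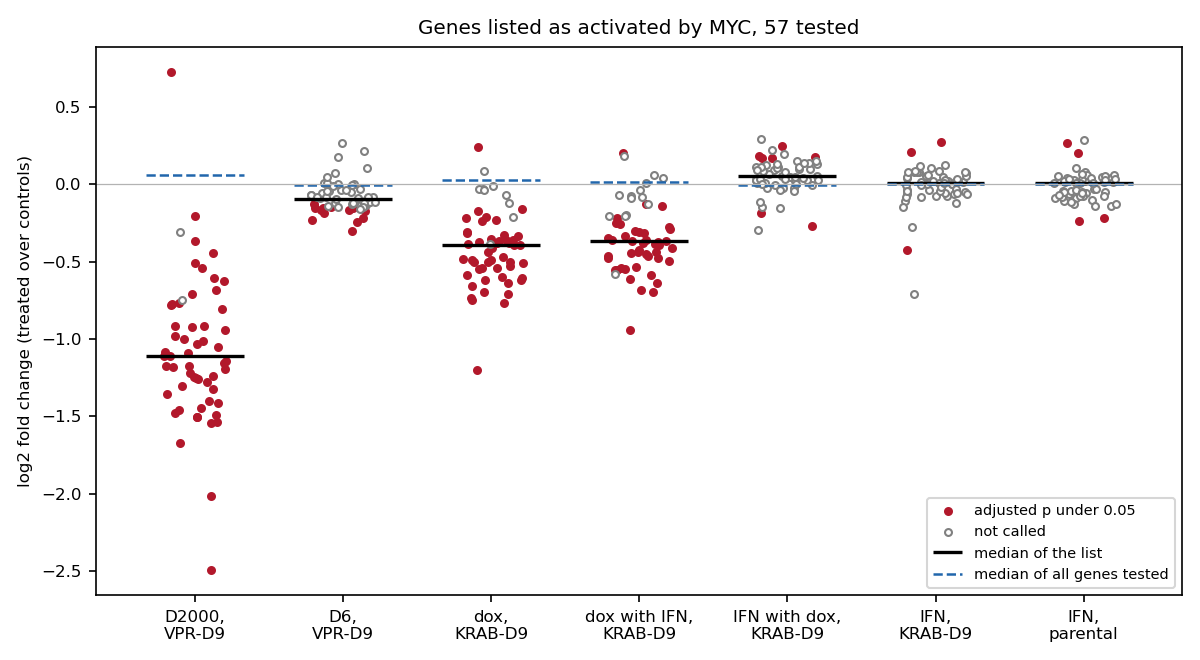
Log2 fold change of the 57 tested genes listed as activated by MYC in 7 comparisons, 1 point a gene; red points passed an adjusted p under 0.05 in edgeR's quasi-likelihood test, black lines are list medians and dashed lines medians of all genes tested. List medians were -1.11 in D2000, -0.39 and -0.37 in the KRAB-D9 doxycycline comparisons, -0.10 in D6, 0.05 with IFN on top of doxycycline, 0.01 with IFN in KRAB-D9 and 0.00 with IFN in parental cells.

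With IFN, where MYC rose by small factors, few of these genes were called. The counts were 2 higher and 2 lower in parental cells, and 2 higher and 1 lower in KRAB-D9 cells. On top of doxycycline they were 5 higher and 2 lower. Few of all genes were called there as well, at 4.34%, 6.4% and 4.89% in that order, so the few calls are not particular to this list. List medians there were near 0, from 0.00 to 0.05. Leaving out the shallow IFN library gave 4 higher and 3 lower in KRAB-D9 cells. Between untreated lines, VPR-D9 had 39 lower and 3 higher than parental cells (median -0.22), where 36.8% of all genes were called. KRAB-D9 had 17 lower and 11 higher than parental cells (median -0.01), where 28.5% of all genes were called.

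A second list of 17 textbook MYC targets gave 17 lower in D2000 (median -1.14) and 8 lower in D6 (median -0.13). In KRAB-D9 it gave 13 lower and 2 higher with doxycycline (median -0.33). With both agents against IFN alone it gave 11 lower and 2 higher (median -0.24). Of all genes, 46.1%, 6.6%, 24.7% and 22.3% were called, in that order, with medians of 0.06, -0.01, 0.02 and 0.01. ODC1, the first enzyme of polyamine synthesis, stood at 216 and 204 CPM in the D2000 libraries, 427 and 439 CPM in D6, and 514 and 523 CPM in untreated VPR-D9 cells. It fell by 1.30 ± 0.04 in D2000 (edgeR adjusted p = 1.31e-27) and by 0.26 ± 0.04 in D6 (edgeR adjusted p = 1.8e-06). NCL, the nucleolar protein nucleolin, fell by 1.31 ± 0.04 in D2000 (edgeR adjusted p = 2.25e-27) and by 0.48 ± 0.04 in KRAB-D9 with doxycycline (edgeR adjusted p = 2.82e-13). TFRC, the transferrin receptor and also 1 of the erythroid markers, went opposite ways: it fell by 1.57 ± 0.04 in D2000 (edgeR adjusted p = 2.78e-30) and rose by 0.14 in KRAB-D9 with doxycycline (edgeR adjusted p = 0.0015), where BCAT1, a branched-chain aminotransferase, was the other gene called higher.

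Genes listed as repressed by MYC were called in both directions, and 46.1% of all genes were called in D2000 (median 0.06), 24.7% in KRAB-D9 with doxycycline (median 0.02), 22.3% with both agents against IFN alone (median 0.01) and 6.6% in D6 (median -0.01). Of 10 tested, of 12 listed, 3 were higher and 6 lower in D2000 (median -0.26), 4 higher and 1 lower in KRAB-D9 with doxycycline (median 0.13), 3 higher and 1 lower with both agents against IFN alone (median 0.15), and 3 lower in D6 (median -0.26). With library totals D2000 gave 3 higher and 3 lower, and leaving out the shallow IFN library gave 3 higher and none lower with both agents. NDRG1, a stress-response gene, stood at 2.698 and 2.41 CPM in the D2000 libraries, 0.270 and 0.480 CPM in D6, and 0.218 and 0.189 CPM in untreated VPR-D9 cells, a rise of 3.64 ± 0.37 at low level (edgeR adjusted p = 5.93e-11). CDKN1C, a cyclin-dependent kinase inhibitor, fell by 1.48 ± 0.11 there (edgeR adjusted p = 5.49e-15). CDKN1B, the inhibitor p27, rose by 0.32 ± 0.06 in KRAB-D9 with doxycycline (edgeR adjusted p = 3.69e-05).

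Partner complexes of the network were mostly lower in D2000. The counts that follow stand beside 46.1% of all genes called in D2000 (median 0.06), 24.7% in KRAB-D9 with doxycycline (median 0.02), 22.3% with both agents against IFN alone (median 0.01) and 6.6% in D6 (median -0.01). Of 9 corepressor genes that the MXD proteins and MNT use, 7 were lower and 1 higher in D2000 (median -0.29), 2 lower and 1 higher in KRAB-D9 with doxycycline (median -0.01), 2 lower with both agents against IFN alone (median -0.01), and 1 lower and 1 higher in D6 (median -0.08). The 3 of 9 called in KRAB-D9 with doxycycline and the 2 of 9 with both agents are close to the shares of all genes. The 2 histone deacetylases of the list parted: HDAC1 stood at 461 and 444 CPM in D2000, against 332 and 342 CPM in untreated VPR-D9 cells (0.43 ± 0.04, edgeR adjusted p = 1.01e-12), while HDAC2 stood at 168 CPM in both D2000 libraries, against 252 and 251 CPM (-0.59 ± 0.04, edgeR adjusted p = 9.3e-16). Library totals left 3 lower and 2 higher in D2000.

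Of 11 genes of the variant Polycomb complex that holds MGA, 8 were lower and 1 higher in D2000 (median -0.53), 5 lower in KRAB-D9 with doxycycline (median -0.04), 4 lower with both agents against IFN alone (median -0.11), and 1 lower in D6 (median -0.04). TFDP1, the dimer partner of E2F factors, stood at 79.6 and 80.02 CPM in D2000, against 150 and 149 CPM untreated, and fell by 0.91 ± 0.05 (edgeR adjusted p = 8.16e-20). In D6 it was the one gene of the complex called (-0.19 ± 0.04, edgeR adjusted p = 0.00448). With library totals 7 were lower and 2 higher in D2000.

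Beside the same shares of all genes (46.1%, 24.7%, 22.3% and 6.6%, in the order below), of 15 MYC cofactors 11 were lower and 2 higher in D2000 (median -0.24), 8 lower and 1 higher in KRAB-D9 with doxycycline (median -0.16), 6 lower and 2 higher with both agents against IFN alone (median -0.10), and 1 lower in D6 (median -0.08). RUVBL1, an ATPase of the TIP60 and INO80 complexes, fell by 1.26 ± 0.05 in D2000 (edgeR adjusted p = 1.02e-23). Of 13 genes of MYC protein turnover, 10 were lower in D2000 (median -0.33), 7 lower and 1 higher in KRAB-D9 with doxycycline (median -0.15), 6 lower and 1 higher with both agents against IFN alone (median -0.09), and 3 lower in D6 (median -0.11). USP36, a nucleolar deubiquitinase that acts on MYC, stood at 52.6 and 51.5 CPM in D2000, against 109 and 103 CPM untreated, and fell by 1.03 ± 0.06 (edgeR adjusted p = 5.06e-18). With library totals 5 cofactors were lower and 3 higher in D2000, and 7 turnover genes were lower and 2 higher.

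Among 9922 genes with a mean of at least 5 CPM, the 5 whose level ran closest to MYC over the 9 group means were GNL2 (Pearson r = 0.996), TIPIN (0.994), VDAC1 (0.994), PPIG (0.993) and YRDC (0.993). GNL2 is a nucleolar GTPase of large-subunit assembly, TIPIN a replication fork protein, VDAC1 a mitochondrial outer-membrane channel, PPIG a nuclear cyclophilin and YRDC an enzyme of tRNA modification. GNL2 averaged 134.9 CPM in D2000, 213 CPM in D6 and 218 CPM in untreated VPR-D9 cells, which is the same order as MYC apart from the last step. The most opposite were RABGAP1 (-0.991), ERBB2 (-0.986) and AJUBA (-0.984). D2000 weighs on these values, and over the other 8 groups they were 0.961 to 0.985 and -0.926 to -0.961. Within the network, over the same 9 groups, MNT ran most opposite to MYC (-0.926, and -0.824 without D2000) and MAX most like it (0.822, and 0.839 without D2000), while MXD4 gave -0.698 (-0.735 without D2000) and MXD3 -0.666 (-0.305 without D2000). The choice of genes depends on the measure. By Spearman rank correlation the first 5 were LRR1, STEAP3, LSM7, PLAA and GAGE1, each at 1. GNL2, TIPIN, VDAC1, PPIG and YRDC gave 0.933 to 0.983 by rank. All these correlations are descriptions over group means that share lines and libraries.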

How the data were processed

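Gene counts were deposited as 1 table of whole numbers for 18 stranded, polyA-selected libraries. Per the submitters' processing notes the authors used cutadapt 2.10, FastQC 0.11.9, STAR 2.7.8a and featureCounts 2.0.2 with GRCh38.p13. The sources used here name neither the annotation release nor the strand setting. From the counts, low genes were removed with filterByExpr by group, libraries were scaled by TMM, and edgeR 4.0.16 (limma 3.58.1, R 4.3.3) fitted 9 group means with a robust quasi-likelihood test (9 residual degrees of freedom). P-values were adjusted by Benjamini-Hochberg over 22143 genes. SE is the log2 fold change over the square root of F. CPM per kb used the deposited gene length. The tests were checked on simulated data. DESeq2 1.42.0, other scalings, no filter, only the groups compared, a replicate block and leaving out each library were alternatives. Intervals and floors cover counting and fitting error only.

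The members and the gene lists were chosen with earlier results of these data known. All members are named. Of each list, at most the 4 genes with the smallest adjusted p in each doxycycline comparison were eligible for naming, and the genes most like MYC were the 5 highest and 3 lowest Pearson correlations over group means (log2 CPM, prior count 2). Over all libraries, fibroblast or epithelial markers summed to 61.1 to 134.9 CPM. Levels of 1 other marker list are not reported here.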

Additional observations from a re-analysis of the deposited data

Results flagged for a closer look

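The doxycycline response in D2000 and that in KRAB-D9 cells without IFN differed in a direct test for 5 members. On the log2 scale the D2000 response minus the KRAB-D9 response was -1.0793 for MYC, 0.5052 for MXD3, -0.65037 for MXD4, 0.47451 for MNT and -0.42178 for MLX. Leaving out the second KRAB-D9 doxycycline library took the adjusted p of MXD3 to 0.0915.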

How the results depend on the processing

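Of 1278 values recomputed under an alternative, 1190 kept their direction and their side of the threshold, 13 gained a call, 35 lost one and 40 changed sign, of which 3 were called as reported and 1 was called under the alternative. The number of samples per group, 2, limits small differences. Where a cause is not shown by the alternative itself, the cause was not tested.

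The labels share replicate numbers across groups, but deviations of same-numbered libraries did not go together (r from -0.12 to 0.196 over 36 group pairs, 2 over 0.1). With a replicate block MYC was -1.604 in D2000 and -0.5248 with doxycycline in KRAB-D9, and the counts of members called were the same in all 13 comparisons.

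Fitting only the groups compared gave 1 member called for IFN in KRAB-D9 (2 as reported) and 1 in D6 (0 as reported, MNT), and 22 activated targets lower in D6 (13 as reported). Library totals gave 5. When a library was left out, members called ran from 0 to 1 for IFN in parental cells, 1 to 3 for IFN in KRAB-D9, 0 to 2 for IFN on top of doxycycline, 3 to 6 for doxycycline in KRAB-D9 and 0 to 1 for the IFN difference between lines, and activated targets lower in D6 from 5 to 7.

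With library totals, changed signs were 0.003339 for MNT with IFN in parental cells (0.001705 with no filter), 0.03155 for MNT with doxycycline in KRAB-D9, 0.03477 for MAX and 0.03975 for MGA in D2000, 0.01388 for MGA in D6, -0.1467 (adjusted p = 0.0184, edgeR) for MAX and -0.02587 for MGA in D6 over D2000, and 0.1612 for MAX and 0.1104 for MGA in the D2000 minus KRAB-D9 response. The interaction for MXD4 was 0.01089 with library totals, 0.001987 with DESeq2's size factors and 0.006481 with DESeq2.

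Leaving out a library also changed signs of small values. For IFN in parental cells the ranges were -0.0519 to 0.0192 (MXD1), -0.07871 to 0.03414 (MXI1), -0.0932 to 0.08696 (MNT) and -0.007269 to 0.02429 (MGA). For IFN in KRAB-D9 they were -0.009948 to 0.07746 (MXD1) and -0.3969 to 0.02709 (MNT), and on top of doxycycline -0.06149 to 0.03492 (MLX) and -0.04331 to 0.04867 (MGA). For doxycycline in KRAB-D9 they were -0.01842 to 0.06901 (MXD1), -0.06527 to 0.04883 (MNT) and -0.002665 to 0.06339 (MLX), and with IFN -0.09665 to 0.3273 (MNT). In D6 they were -0.04778 to 0.1738 (MXI1) and -0.06642 to 0.01729 (MGA). For the IFN difference between lines the range was -0.3934 to 0.03025 (MNT), for the interaction -0.1483 to 0.1914 (MXD4) and -0.09183 to 0.3322 (MNT), and for MAX in the D2000 minus KRAB-D9 response -0.07273 to 0.0185.

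Over all genes, fitting only the groups compared called 465 for IFN in KRAB-D9 (1417 as reported), 3270 for doxycycline on top of IFN (4929) and 2327 in D6 (1461). When a library was left out, the counts were 752 to 853 in D6, 467 to 781 for IFN in parental cells (960 as reported), 815 to 2202 for IFN in KRAB-D9 and 591 to 650 for IFN on top of doxycycline (1082 as reported). For the IFN difference between lines the counts were 133 with no filter, 22 with only the groups compared and 102 with DESeq2 (67 as reported), and 20 to 992 when a library was left out. For the interaction they were 74, 14 and 83 (35 as reported), and 17 to 769. Library totals moved the share of called genes that were higher to 68.6% in D2000 (47.6% as reported), 69% in D6 (48.4%), 31.2% in D6 over D2000 (53.6%), 61.4% for doxycycline on top of IFN (46.7%) and 63.2% for the D2000 minus KRAB-D9 response (38.9%).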
